A study of Mus musculus with 10 samples.

Results

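The regions described here are the long domains of dimethylated lysine 79 of histone H3 (H3K79me2) in untreated mouse embryonic stem cells. A domain was made by joining untreated H3K79me2 peaks over gaps of at most 3.0 kb, and a domain of 50 kb or more on chromosomes 1 to 19 and X was called long. The rule found 499 long domains among 15040 untreated H3K79me2 domains. The members were thus chosen by their length in the untreated H3K79me2 list. Lengths and H3K79me2 values below are descriptions, while RNA polymerase II (Pol II), trimethylated lysine 4 (H3K4me3) and trimethylated lysine 27 (H3K27me3) were not used by the rule.

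H3K79me2 is laid down by DOT1L, a methyltransferase that reaches chromatin together with factors of transcription elongation. The mark is found over transcribed genes, strongest downstream of the promoter, and decays towards the end of long genes. H3K4me3 marks active and poised promoters, and H3K27me3 is the mark of Polycomb repression. Pol II is the enzyme that transcribes protein-coding genes, and its peaks lie at promoters, within gene bodies and past gene ends.

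Chromatin immunoprecipitation with sequencing (ChIP-seq) was done in R1E embryonic stem cells on a mixed C57BL/6 and 129Sv background, kept at less than 20 passages in medium with serum and leukemia inhibitory factor. One group received 0.5 uM Adriamycin for 8 h and the other was untreated, and no other difference between the groups is given. Adriamycin (doxorubicin) is a topoisomerase II poison that causes DNA double-strand breaks. Each of 5 targets (H3K4me3, H3K27me3, H3K79me2, Pol II and the RNA-binding protein hnRNP L) had 1 library per condition from this single line.

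With 1 library in each group, no difference between conditions had a replicate check, and none was tested. The values are peaks in the lists that the authors deposited, on build mm9, and read depth is unknown, so a shorter list and a less sensitive library cannot be told apart. The H3K79me2 list held 71959 peaks after Adriamycin and 63053 in untreated cells, whereas the Pol II list held 59426 after Adriamycin and 81069 in untreated cells. The H3K4me3 list had 41705 peaks after Adriamycin and 38421 in untreated cells, and the H3K27me3 list had 88365 after Adriamycin and 97639 in untreated cells. In bulk chromatin, fewer cells with a signal and less signal per cell cannot be told apart. Each share of domains has a 95% interval (exact, Clopper-Pearson) that covers only counting error. No gene annotation of build mm9 was used, so the domains are named by position and the embryonic stem cell label was not checked against marker genes.

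The long domains made up 3.32% of the untreated domains and spanned 36.8 Mb. They held 23.4% of all H3K79me2-covered bases in the Adriamycin list and 23.4% in the untreated list. Their length ran from 50.1 to 211.6 kb with a median of 64.6 kb, and 50% of them lay between 55.8 and 80.5 kb. There were fewer at greater lengths: 191 were under 60 kb, 60 reached 100 kb and 13 reached 150 kb. The shortest lay at chr15:84635768-84685872, and the next at chr8:12757214-12807353 and chr12:17354294-17404451 measured 50.1 and 50.2 kb. Just outside the limit, the domains at chr7:86418135-86468113, chr15:88516589-88566508 and chr11:95819437-95869327 measured 49.98, 49.92 and 49.89 kb. The same joining rule applied to the Adriamycin list gave 444 domains of 50 kb or more, the longest of 236.8 kb.

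Long domains were spread over all numbered chromosomes. Chromosome 4 had the most with 43, followed by chromosomes 2 and 11 with 42 each. Per length, chromosome 11 held 3.45 long domains per 10 Mb and chromosome 17 held 3.15, against 1.32 on chromosome 3, the lowest among the numbered chromosomes. Chromosome X had no long untreated domain: its longest of 396 domains reached 48.7 kb. On X, 1.15% of bases were under untreated H3K79me2 peaks, compared with 3.68% to 9.82% on chromosomes 1 to 19. In the Adriamycin list chromosome X had 2 long domains, the longer of 73.3 kb.

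No long domain was a single peak. The median domain held 21 H3K79me2 peaks after Adriamycin (range 2 to 103) and 18 in untreated cells (range 2 to 74). Over all long domains there were 11392 peaks after Adriamycin and 9755 in untreated cells, with a median width of 1.33 kb after Adriamycin and 1.59 kb in untreated cells. Very wide peaks were fewer in the Adriamycin list: 119 peaks were 20 kb or wider after Adriamycin against 203 in untreated cells, and the widest measured 59.7 kb after Adriamycin and 91.6 kb in untreated cells. The domains were thus marked in more and narrower calls after Adriamycin. This held for the whole list and was not particular to long domains. On all chromosomes the median H3K79me2 peak width was 0.934 kb after Adriamycin and 1.14 kb in untreated cells. In domains of 20 to 50 kb it was 1.14 kb after Adriamycin and 1.33 kb in untreated cells. In untreated cells, domains with more peaks were less filled (Spearman's rho -0.67 over 499 domains, which share the library). Each further joined peak brings an unfilled gap, so a negative value is favoured by the joining rule. In domains of 20 to 50 kb rho was -0.63.

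The 5 longest domains differed widely in their Pol II. The longest, at chr11:107121777-107333376, measured 211.6 kb and had 91.0% of its bases under H3K79me2 peaks after Adriamycin and 92.3% in untreated cells. Its Pol II peaks covered 9.87 kb after Adriamycin and 52.8 kb in untreated cells, a log2 ratio of -2.31 (all such ratios have 1 kb added to each covered length). Its H3K4me3 peaks covered 31.8 kb after Adriamycin and 53.5 kb in untreated cells. H3K79me2 thus stayed almost as extensive in this domain while Pol II peaks were much sparser, as the map of peaks shows.

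The second longest domain, at chr15:61869142-62077599, went the other way. It was 208.5 kb long, and Pol II peaks covered 94.6 kb after Adriamycin against 36.1 kb in untreated cells (log2 ratio 1.37). H3K4me3 peaks covered 28.5 kb after Adriamycin and 15.2 kb in untreated cells, with H3K79me2 filling of 94.6% after Adriamycin and 95.3% in untreated cells. At chr13:44809821-45015306 (205.5 kb), Pol II covered 8.49 kb after Adriamycin and 45.9 kb in untreated cells. The remaining members of the 5, at chr14:22286909-22490277 and chr5:119010459-119213134, had 33.6 and 23.0 kb of Pol II after Adriamycin, against 78.7 and 37.3 kb in untreated cells. Pol II was therefore lower after Adriamycin in 4 of the 5, with filling above 90% in both conditions in all 5.

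**Figure D1:**
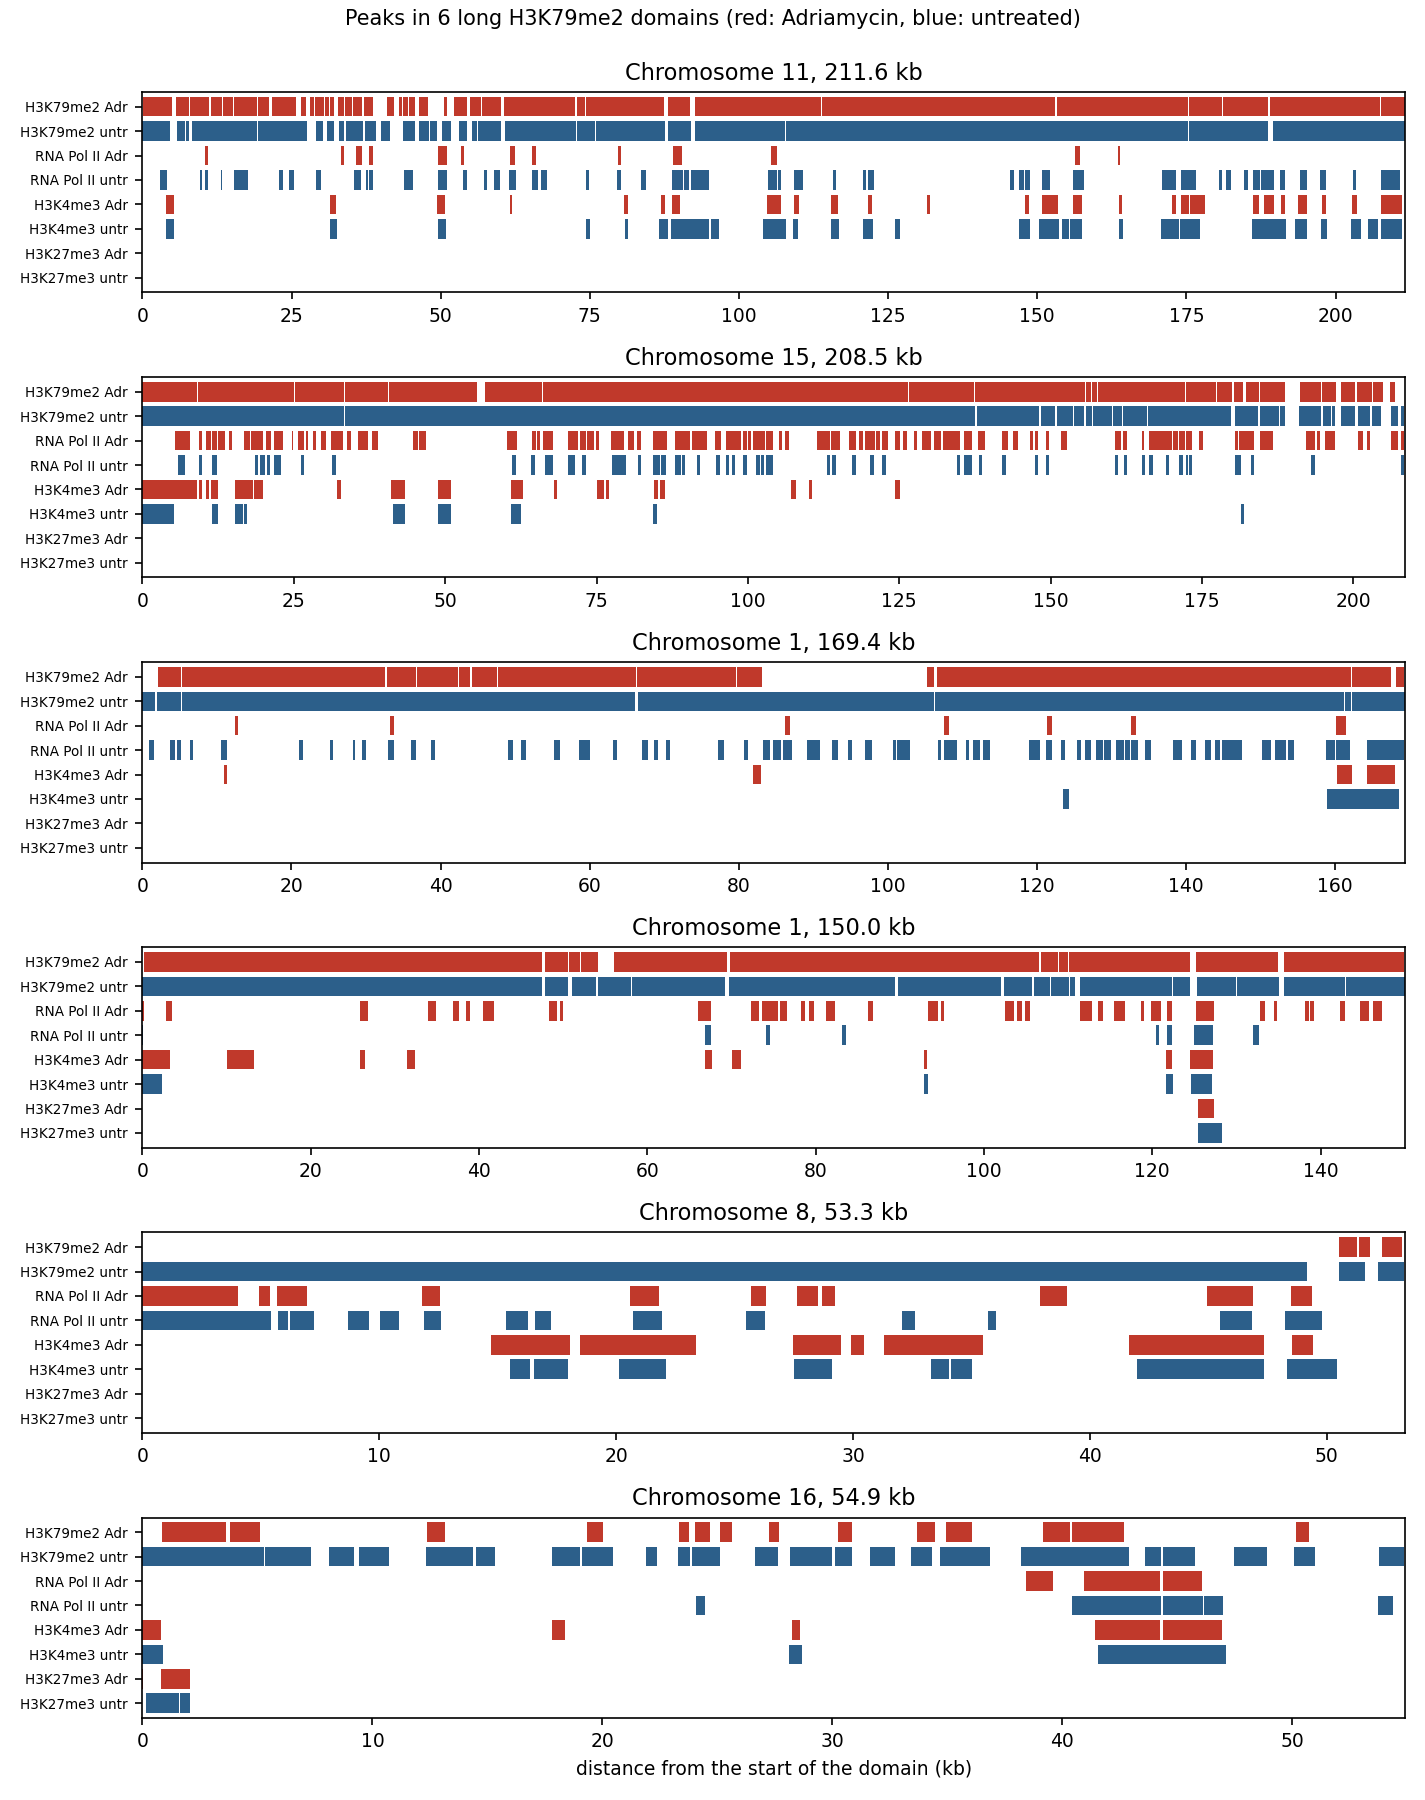
Peaks of 4 targets in 6 long H3K79me2 domains, by distance from the domain's start in kb; red bars are Adriamycin peaks (Adr) and blue bars untreated peaks (untr), with the Adriamycin row above the untreated row of each target. From the top: the longest and the second longest domain, the domains with the lowest and the highest Pol II log2 ratio, the domain with the largest loss of filling (50.5 kb break) and the domain with most breaks (6).

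Filling, the percent of a domain's bases under H3K79me2 peaks, was measured within the untreated bounds for both lists. It had a median of 83.8% after Adriamycin (range 3.84% to 99.7%) and 89.1% in untreated cells (range 59.1% to 99.9%). Most domains therefore stayed largely marked after 8 h, with a median difference of -4.39 percentage points. Filling was lower after Adriamycin in 451 of 499 long domains (90.4%, interval 87.4% to 92.8%), against a background of 88.4% of all untreated domains. The share in long domains was thus near the background, and the untreated list set the bounds, so that a lower value in the Adriamycin list is favoured by the rule.

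The mirrored measure had a smaller difference. Within the 444 long domains made from the Adriamycin list, filling had a median of 87.5% after Adriamycin and 88.7% in untreated cells, and the median difference was -1.31 points. It was lower after Adriamycin in 306 of those domains (68.9%, interval 64.4% to 73.2%), against 30.1% of all domains made from the Adriamycin list and 57.6% of those of 20 to 50 kb. In the bounds of either list, then, more long domains were less filled after Adriamycin than more filled. Covered H3K79me2 bases on the 20 chromosomes were 0.937 of the untreated length after Adriamycin. In bounds set by the untreated list, the ratio was 0.936 inside the long domains and 0.882 inside all domains. It was 0.996 inside the 444 long domains made from the Adriamycin list.

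Large losses of filling were few in long domains. Filling was lower by over 10 points in 89 long domains and by over 20 points in 12, and higher after Adriamycin in 48. The lower quartile of the difference was -7.86 points in long domains and -10.6 in those of 20 to 50 kb. Over all untreated domains the median was -14.1 points. Losses of over 10 points were thus more common in shorter domains. These values are in untreated bounds, which favour losses. The 10th percentile of the difference was -13.2 points there and -5.76 in the long domains made from the Adriamycin list. Domains over 95% filled numbered 47 after Adriamycin and 107 in untreated cells, and domains under 70% filled numbered 67 after Adriamycin and 14 in untreated cells. These were counted in long domains only. The 10th percentile of filling in long domains was 67.4% after Adriamycin and 77.2% in untreated cells. In domains of 20 to 50 kb it was 55.5% after Adriamycin and 66.6% in untreated cells, so low filling was not particular to long domains. In the plot of filling the points therefore lie mostly just under the line of equal values.

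The largest loss was at chr8:89362767-89416032 (53.3 kb), where H3K79me2 peaks covered 3.84% after Adriamycin and 96.4% in untreated cells. There, Pol II peaks covered 13.7 kb after Adriamycin and 16.7 kb in untreated cells, and H3K4me3 peaks 21.7 kb after Adriamycin and 15.0 kb in untreated cells. Only the H3K79me2 coverage was nearly gone, while Pol II and H3K4me3 peaks remained in the domain. H3K79me2 had 3 peaks there in each list, and the loss was 1 break of 50.5 kb, so it rests on very few wide untreated peaks. Whether the mark or only a wide peak call was missing after Adriamycin was not tested. The next largest loss, at chr4:141727828-141795356, was to 43.3% after Adriamycin against 95.2% in untreated cells, and H3K4me3 peaks covered 8.54 kb after Adriamycin and 4.98 kb in untreated cells. The domain at chr3:130835378-130887815 was 28.2% filled after Adriamycin and 72.5% in untreated cells, and it had no Pol II peak after Adriamycin and 1.28 kb in untreated cells. The domain at chr4:34752301-34831310 was 36.2% filled after Adriamycin and 78.6% in untreated cells, and chr16:35542484-35597351 was 25.9% filled after Adriamycin and 64.4% in untreated cells. In all 5, Pol II covered less after Adriamycin, with log2 ratios from -1.66 to -0.23, as in most long domains, and their H3K4me3 log2 ratios ran from -0.64 to 0.67.

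Gains were smaller in size, within bounds that the untreated list set and largely filled, which leaves little room for a gain. The asymmetry was reversed in the 444 long domains made from the Adriamycin list, where the difference ran from -18.7 to 74.2 points. In the untreated bounds, the largest gain was at chr17:17711156-17761513, which was 88.0% filled after Adriamycin and 76.5% in untreated cells, a difference of 11.5 points. At chr5:66952869-67008677 the values were 89.7% after Adriamycin and 78.8% in untreated cells, and at chr14:48092337-48152230 they were 81.7% after Adriamycin and 71.4% in untreated cells. The next gains, at chr7:107855160-107926755 and chr8:55162562-55214397, were of 7.73 and 7.53 points. All 5 were loosely filled domains in untreated cells, between 63.4% and 78.8%. A large gain needs low untreated filling, so the ranking itself favours such domains.

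A break was defined as a stretch of over 3.0 kb inside a domain with no peak of the other list, and by the joining rule the untreated list has none. Of the 499 long domains, 217 had at least 1 Adriamycin break (43.5%, interval 39.1% to 48.0%), against a background of 31.7% of all untreated domains. A longer domain offers more room for a break. Per length, long domains had 8.30 breaks per Mb and domains of 20 to 50 kb had 11.6 per Mb. In the mirrored count, 109 of the 444 long Adriamycin domains had an untreated break (24.5%, interval 20.6% to 28.8%), against 26.7% of all domains made from the Adriamycin list, with 4.401 breaks per Mb. Breaks of the Adriamycin list in untreated domains were thus more frequent than the reverse, although the Adriamycin list held more H3K79me2 peaks.

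**Figure D2:**
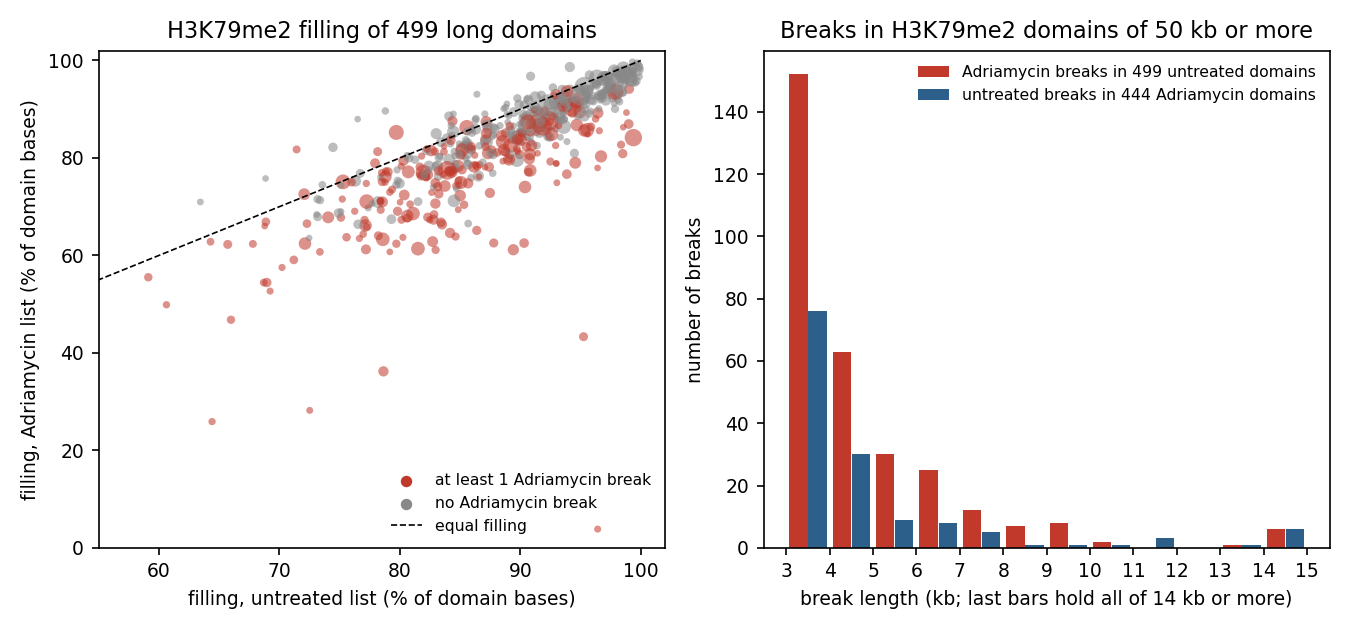
Left, H3K79me2 filling (percent of domain bases) of each of 499 long domains after Adriamycin (vertical axis) against untreated (horizontal axis, from 55%), with larger points for longer domains and red for the 217 with at least 1 Adriamycin break. Right, number of breaks by length in kb for the 306 Adriamycin breaks in untreated domains (red) and the 141 untreated breaks in Adriamycin domains (blue); most are under 5 kb.

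Most breaks were short. The 306 Adriamycin breaks had a median length of 4.003 kb, 215 were under 5 kb, and 9 exceeded 10 kb. Together they covered 1.55 Mb, or 4.197% of the long domains' bases. There were 242 interior breaks and 64 at a domain's edge, and 67 domains had 2 or more. Breaks of either list lay where the list that defined the domain was itself less filled. Untreated peaks filled 57.0% of the bases in Adriamycin breaks, compared with 88.3% of the long domains as a whole. In the mirrored count, Adriamycin peaks filled 55.8% of the bases in untreated breaks, compared with 86.7% of the long Adriamycin domains. The lower filling was thus not particular to the Adriamycin breaks. The highest untreated peak score touching an Adriamycin break had a median of 312, on the authors' MACS score that starts at 50. Some of these breaks were touched by untreated peaks with far higher scores, and scores of peaks away from breaks were not compared. Pol II peaks touched 101 of the 306 breaks after Adriamycin and 156 in untreated cells, and H3K4me3 peaks touched 81 after Adriamycin and 80 in untreated cells.

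The domain with most breaks, at chr16:35542484-35597351, had 6, with 31.4 kb of its 54.9 kb lying in breaks. The domain at chr3:130835378-130887815 had 5 and chr11:88233536-88295866 had 4. At chr12:100504718-100637214 and chr9:65546335-65675241, both over 100 kb, there were 3 each. The longest break, of 50.5 kb, was the one at chr8:89362767-89416032. In the reverse direction the longest untreated break measured 75.2 kb, inside an Adriamycin domain, so that long stretches present in 1 list only occurred in both directions.

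The joining rule applied to each list gave domains that matched only in part. Of the long domains, 177 overlapped at least 2 Adriamycin domains (35.5%, interval 31.3% to 39.8%), against 7.17% of all untreated domains and 21.2% of those of 20 to 50 kb, which have less room to overlap several. In addition, 106 long domains overlapped no Adriamycin domain of 50 kb or more. A longer Adriamycin counterpart was present for 141. In the reverse direction, 87 of 444 long Adriamycin domains overlapped at least 2 untreated domains (19.6%, interval 16% to 23.6%), against 5.32% of all Adriamycin domains and 16.4% of those of 20 to 50 kb, and 48 overlapped no long untreated domain. Splitting was therefore the more common direction, and joining occurred too.

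Pol II peaks covered less of the long domains after Adriamycin. They covered 11.3% of the bases after Adriamycin and 18.8% in untreated cells, or 4.17 Mb after Adriamycin and 6.93 Mb in untreated cells, a ratio of 0.601. The number of Pol II peaks was 4273 after Adriamycin and 6913 in untreated cells. The median domain had 6 Pol II peaks covering 4.21 kb after Adriamycin and 11 peaks covering 8.71 kb in untreated cells. Over chromosomes 1 to 19 and X the ratio of covered bases was 0.707, so the lower Pol II of long domains stands on a list that was shorter everywhere.

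Covered Pol II length was lower by 1.5 times or more after Adriamycin in 264 of 499 long domains (52.9%, interval 48.4% to 57.4%), against a background of 20.9% of all untreated domains. It was higher by 1.5 times or more in 17 (3.41%, interval 2.00% to 5.40%), against a background of 2.96%. The lower calls were well above their background and the higher calls were near it. The log2 ratio was below 0 in 433 long domains and above 0 in 64, with a median of -0.63. Pol II was lower by 4 times or more in 26 long domains, which was not counted in other domains. The 10th percentile of the log2 ratio was -1.64 in long domains, -1.36 in domains of 20 to 50 kb and -0.92 over all untreated domains. Its median was -0.46 in domains of 20 to 50 kb and -0.006 over all untreated domains. In domains of 20 to 50 kb, 878 of 2110 were lower by 1.5 times or more (41.6%, interval 39.5% to 43.7%). Short domains often hold too little Pol II to pass a ratio with 1 kb added. Among domains with a mean of at least 5 kb of Pol II over both conditions, a choice made after seeing the data, 166 of 293 long domains were lower (56.7%, interval 50.8% to 62.4%) and 411 of 822 domains of 20 to 50 kb (50%, interval 46.5% to 53.5%); these intervals overlap.

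The ratio of covered Pol II bases declined along the length classes. It was 0.732 in domains under 5 kb, 0.727 at 5 to 10 kb, 0.686 at 10 to 20 kb, 0.625 at 20 to 50 kb, 0.619 at 50 to 100 kb and 0.523 at 100 kb or more. In the 60 domains of 100 kb or more, Pol II covered 8.19% of bases after Adriamycin and 15.7% in untreated cells, and 39 were lower by 1.5 times or more (65.0%, interval 51.6% to 76.9%). Classes made from the Adriamycin list followed the same order, with 0.604 for its 444 long domains and 0.526 for those of 100 kb or more. Of those 444, Pol II was lower by 1.5 times or more in 228 (51.4%, interval 46.6% to 56.1%), against 18.9% of all domains made from the Adriamycin list. With equal numbers of top-scoring peaks in both Pol II lists, the ratio was 0.714 in long domains, 0.711 at 20 to 50 kb, 0.661 at 100 kb or more and 0.825 over the chromosomes. The share of long domains lower by 1.5 times or more was then 36.3%, with 28.6% at 20 to 50 kb, and 7.41% of long domains were higher, so part of the count goes with the list lengths.

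**Figure D3:**
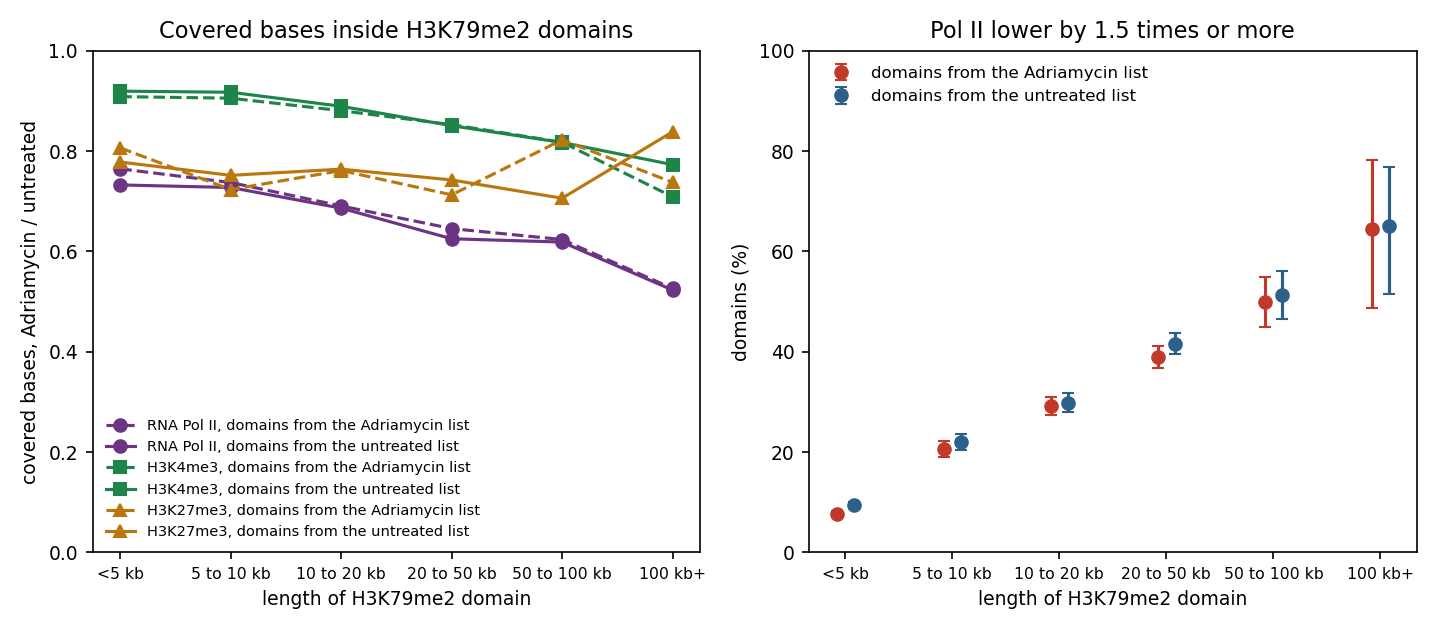
Left, ratio of covered bases (Adriamycin over untreated) of Pol II, H3K4me3 and H3K27me3 inside H3K79me2 domains by domain length, with domains from the Adriamycin list (dashed) or the untreated list (solid). Right, percent of domains with Pol II covered length lower by 1.5 times or more, with exact 95% intervals, for domains from the Adriamycin list (red) and the untreated list (blue); the share is 9.42% under 5 kb and 65.0% at 100 kb or more for the untreated list.

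The domain with the lowest Pol II log2 ratio (-3.27) lay at chr1:120783489-120952917. It had 7 Pol II peaks covering 4.81 kb after Adriamycin and 60 peaks covering 55.2 kb in untreated cells. H3K79me2 filled 84.2% after Adriamycin and 99.4% in untreated cells, with a single break of 22.2 kb. Peaks of Pol II along the whole domain in untreated cells were thus reduced to isolated ones after Adriamycin. At chr3:133125854-133207334 Pol II covered 2.87 kb after Adriamycin and 28.4 kb in untreated cells, and at chr1:183828455-183963189 it covered 4.97 kb after Adriamycin and 43.7 kb in untreated cells. At chr9:48791814-48846266 the values were 3.25 kb after Adriamycin and 27.7 kb in untreated cells, and at chr2:30939436-30997531 they were 0.47 kb after Adriamycin and 8.61 kb in untreated cells. Filling in these other 4 stayed within 7.24 points of the untreated value, and at chr1:183828455-183963189 it was 86.3% after Adriamycin and 85.6% in untreated cells.

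The highest log2 ratio (2.27) was at chr1:91351667-91501641, a domain of 149.975 kb. Pol II covered 30.1 kb there in 37 peaks after Adriamycin and 5.46 kb in 8 peaks in untreated cells, and H3K4me3 covered 13.6 kb after Adriamycin and 6.24 kb in untreated cells. H3K79me2 filling was 96.5% after Adriamycin and 96.4% in untreated cells, so the marked stretch had nearly the same extent while Pol II and H3K4me3 peaks were more extensive. At chr12:81891383-81970005 Pol II covered 10.5 kb after Adriamycin and 1.68 kb in untreated cells, with filling of 98.7% after Adriamycin and 94.1% in untreated cells. At chr1:133334446-133406219 Pol II covered 1.85 kb after Adriamycin and no untreated peak was listed, and at chr8:46023154-46092066 it covered 4.26 kb after Adriamycin and 1.02 kb in untreated cells. Those last values are a few peaks each, and the fifth domain by this ratio was the 208.5 kb domain on chromosome 15 described above.

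Over the 499 domains the Pol II log2 ratio and the filling difference had Pearson's r 0.12 and Spearman's rho 0.19, whereas the Pol II and H3K4me3 log2 ratios had r 0.52 and rho 0.48. These are descriptions across domains that share the same libraries. Filling was lower by under 5 points, or higher, after Adriamycin in 133 of the 264 domains with lower Pol II (50.4%) and in 277 of all 499 long domains (55.5%).

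Pol II peaks without a counterpart were mostly weak ones. Of 6913 untreated Pol II peaks in long domains, 45.9% overlapped an Adriamycin Pol II peak (interval 44.7% to 47.1%), compared with 52.5% in domains of 20 to 50 kb and 49.0% outside all domains. In long domains that share was 23.4% at scores of 50 to 100, 69.9% at 200 to 500 and 98.0% at 1000 or more. Within a score range, domains of 20 to 50 kb had similar shares of 23.8%, 70.6% and 98.9%. In the other direction, 79.1% of the 4273 Adriamycin Pol II peaks in long domains overlapped an untreated one.

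For a view along the domains, each was read from the end that held its widest untreated H3K4me3 peak. The centre of that peak lay in the outer 20% at either end in 399 long domains and in the middle in 97, and 3 had no H3K4me3 peak. Each of the 399 was divided into 10 equal parts, with the H3K4me3 end as part 1. H3K79me2 coverage was highest in part 2, at 92.4% after Adriamycin and 95.4% in untreated cells, and declined to 62.3% after Adriamycin and 73.7% in untreated cells in part 10. In part 10, at a bound that the untreated list set, the lists differed most, and 84 of the 254 Adriamycin breaks in these domains were centred there. Within 338 long domains made from the Adriamycin list and read the same way, part 10 was 71.5% covered after Adriamycin and 71.0% in untreated cells, and it held 35 of 97 untreated breaks. The lower far-end coverage after Adriamycin was thus not seen in the bounds of the Adriamycin list, while breaks of either list lay most often at the far end.

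**Figure D4:**
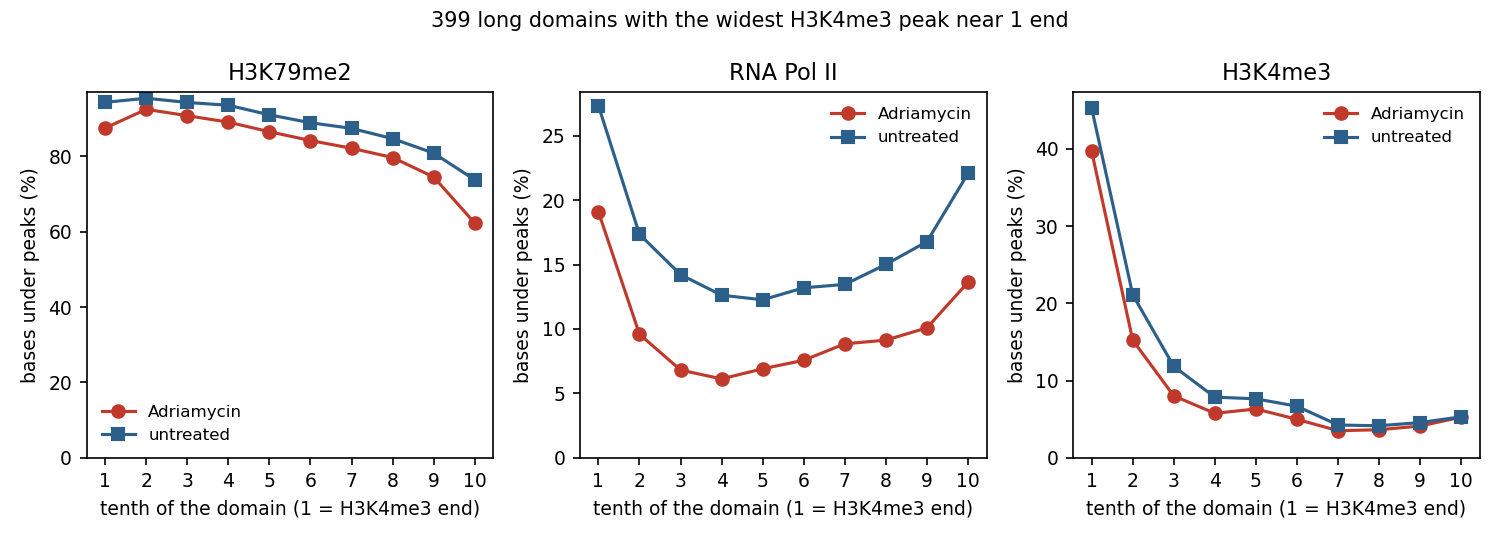
Percent of bases under H3K79me2, Pol II and H3K4me3 peaks in 10 equal parts of 399 long domains, read from the end with the widest untreated H3K4me3 peak (part 1), after Adriamycin (red circles) and in untreated cells (blue squares); each panel has its own vertical axis from 0. Pol II is high at both ends in both conditions, and its Adriamycin curve is lowest in part 4, at 6.13%.

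Pol II had a different shape along the same domains. In part 1 it covered 19.1% of bases after Adriamycin and 27.3% in untreated cells. In part 4 it covered 6.13% after Adriamycin and 12.6% in untreated cells, and in part 10 it covered 13.6% after Adriamycin and 22.1% in untreated cells. Both conditions thus had Pol II peaks concentrated at the 2 ends. The ratio of covered bases was 0.699 in part 1, 0.553 in part 2, 0.479 in part 3 and 0.485 in part 4, and between 0.563 and 0.657 in parts 5 to 10. The lowest relative Pol II was thus shortly inside the H3K4me3 end, away from the end itself. With the Adriamycin H3K4me3 list used to choose the end, the ratio was again lowest in part 3, at 0.477 in 404 domains. Domains of 20 to 50 kb had a similar shape, so it was not particular to long domains. Their ratio was 0.773 in part 1, 0.611 in part 2, 0.522 in part 3 and 0.536 in part 4.

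Distance from the H3K4me3 peak gave the same picture in kb. Measured from the inner edge of the widest untreated H3K4me3 peak, the Pol II ratio was 0.511 at 0 to 5 kb, 0.509 at 5 to 10 kb and 0.491 at 10 to 20 kb. It was 0.571 at 20 to 30 kb, 0.622 at 40 to 50 kb and 0.608 at 75 to 100 kb, where 114 domains reached. The first 20 kb past the widest H3K4me3 peak thus had the lowest ratios, and the range of ratios was narrow. Long domains made from the Adriamycin list were less even. Their Pol II ratio was 0.447 at 0 to 5 kb, 0.540 at 5 to 10 kb, 0.475 at 10 to 20 kb and 0.537 at 20 to 30 kb. H3K79me2 coverage was 94.8% after Adriamycin and 97.2% in untreated cells at 0 to 5 kb, and 75.8% after Adriamycin and 83.0% in untreated cells at 75 to 100 kb. In domains made from the Adriamycin list the direction at 75 to 100 kb was the opposite, with 83.0% after Adriamycin and 81.1% in untreated cells.

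Bases under an H3K4me3 peak of either list were more often covered by Pol II than other bases. At H3K4me3, Pol II covered 32.3% after Adriamycin and 49.0% in untreated cells, a ratio of 0.659. Away from H3K4me3 it covered 7.64% after Adriamycin and 13.5% in untreated cells, a ratio of 0.565. The ratio was lower away from H3K4me3, and the gap was wider in domains of 20 to 50 kb, at 0.724 at H3K4me3 and 0.554 away from it. In domains of 100 kb or more the ratios were close, at 0.519 at H3K4me3 and 0.525 away from it.

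H3K4me3 peaks were also less extensive in the long domains after Adriamycin, by a smaller amount than Pol II. They covered 10.8% of bases after Adriamycin and 13.4% in untreated cells, a ratio of 0.808, against 0.851 in domains of 20 to 50 kb and 0.916 over the chromosomes. The median domain had 4 H3K4me3 peaks in each condition, covering 5.66 kb after Adriamycin and 6.96 kb in untreated cells. The number of peaks was thus alike while the covered length was shorter. H3K4me3 length was lower by 1.5 times or more in 83 of 499 domains (16.6%, interval 13.5% to 20.2%), against a background of 4.46% of all untreated domains and 9.67% of those of 20 to 50 kb. It was higher by 1.5 times or more in 17 (3.41%), against a background of 1.62%. The log2 ratio was below 0 in 366 domains and above 0 in 131, with a median of -0.20, against -0.10 in domains of 20 to 50 kb.

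Of the 83 domains with lower H3K4me3, 70 were also lower by 1.5 times or more for Pol II, compared with 264 of all 499, and 7 of the 17 higher for H3K4me3 were also higher for Pol II. The lowest H3K4me3 ratio was at chr11:8475956-8565181, with 7.82 kb after Adriamycin and 32.0 kb in untreated cells. At chr13:44809821-45015306 H3K4me3 covered 21.8 kb after Adriamycin and 68.6 kb in untreated cells, and at chr1:183828455-183963189 it covered 7.38 kb after Adriamycin and 22.3 kb in untreated cells. In these 3 domains H3K4me3 lay in 5, 19 and 4 peaks after Adriamycin and in 14, 39 and 13 peaks in untreated cells. The highest ratio was at chr8:93837456-93940719, with 4.16 kb after Adriamycin and 1.07 kb in untreated cells, and Pol II there was 0.49 kb after Adriamycin and 0.87 kb in untreated cells. Next came chr11:8329161-8427571, with 5.62 kb after Adriamycin and 1.98 kb in untreated cells, and chr12:81891383-81970005, with 7.19 kb after Adriamycin and 2.90 kb in untreated cells. At chr11:8329161-8427571 Pol II was lower, with 12.6 kb after Adriamycin and 25.7 kb in untreated cells, one of 4 domains in which Pol II was lower and H3K4me3 higher.

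**Figure D5:**
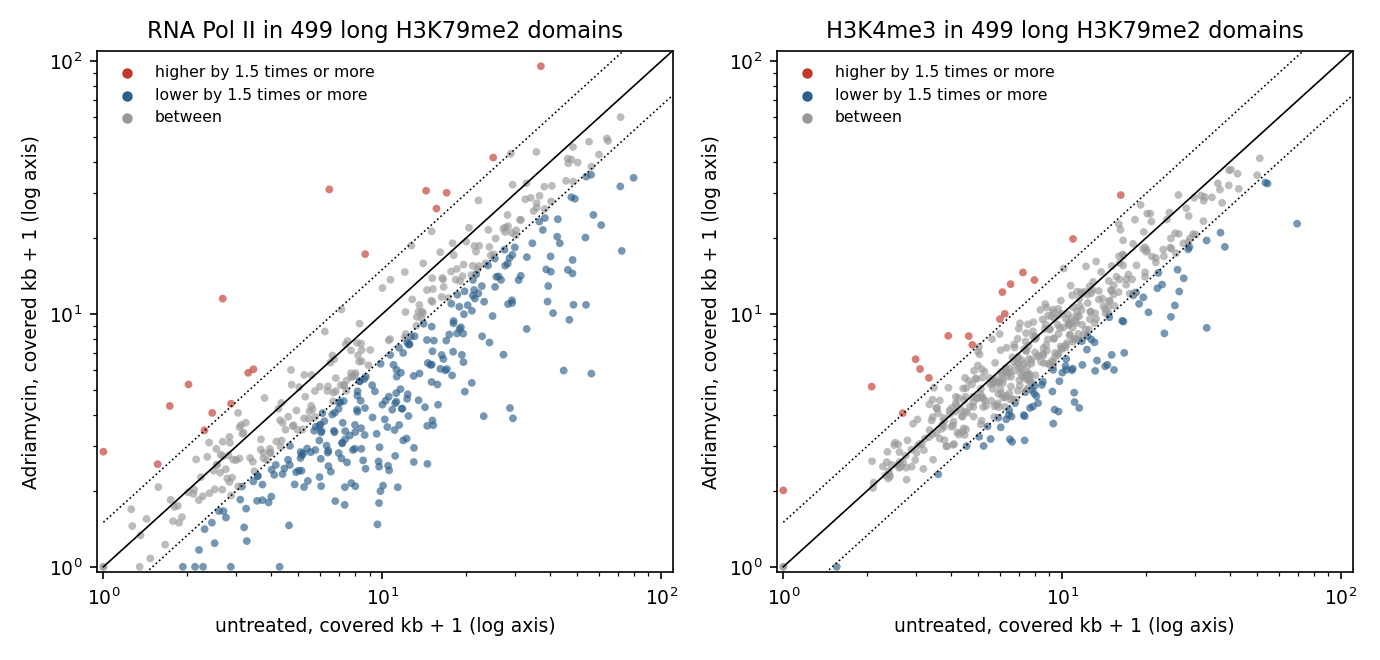
Covered length plus 1 kb (log axes) of Pol II (left) and H3K4me3 (right) in each of 499 long domains, Adriamycin on the vertical axis and untreated on the horizontal axis; the solid line marks equal values and the dotted lines a difference of 1.5 times. For Pol II 17 domains are higher (red) and 264 lower (blue), and for H3K4me3 17 are higher and 83 lower.

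H3K4me3 profiles along the 399 one-sided domains declined steeply. H3K4me3 covered 39.7% of part 1 after Adriamycin and 45.3% in untreated cells, where the choice of the end fixes a high value, and 5.27% of part 10 after Adriamycin and 5.31% in untreated cells. The ratio was 0.877 in part 1, 0.677 in part 3 and 0.992 in part 10. In these domains the lowest H3K4me3 ratios were in parts 2 to 4, at 0.721, 0.677 and 0.734, with 0.747 in part 6. Parts 3 and 4 also had the lowest Pol II ratios. This match was not seen in long domains made from the Adriamycin list. There the H3K4me3 ratio was lowest in part 7, at 0.668, with 0.672 in part 4, while the Pol II ratio was lowest in part 3, at 0.475.

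H3K27me3 was nearly absent inside the long domains in both conditions. It covered 0.294% of their bases after Adriamycin and 0.398% in untreated cells, compared with 2.86% of the chromosomes after Adriamycin and 3.83% in untreated cells. An H3K27me3 peak lay in 57 of 499 domains after Adriamycin (11.4%, interval 8.77% to 14.5%), against a background of 8.18%, and in 67 in untreated cells (13.4%, interval 10.6% to 16.7%), against a background of 9.64%. A long domain has more room to hold a peak, which the covered share of bases above takes into account. The peak was present in both conditions in 49 domains, after Adriamycin only in 8, in untreated cells only in 18 and in neither in 424. The ratio of H3K27me3-covered bases was 0.740 inside the domains and 0.746 over the chromosomes.

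Coverage of H3K27me3 climbed outside the domains. It was 2.27% after Adriamycin and 3.07% in untreated cells within 10 kb of a domain's end, and 6.26% after Adriamycin and 8.04% in untreated cells at 50 to 100 kb. The depletion thus followed the domain bounds in both conditions. Domains of 20 to 50 kb had the same pattern. H3K27me3 covered 0.499% inside them after Adriamycin and 0.672% in untreated cells. At 50 to 100 kb outside them it covered 6.09% after Adriamycin and 7.73% in untreated cells. Inside the long domains, there were 112 H3K27me3 peaks after Adriamycin and 131 in untreated cells. Of these, 45 after Adriamycin and 50 in untreated cells were centred within 5 kb of a domain's end. H3K4me3 peaks overlapped 52 of them after Adriamycin (46.4%) and 59 in untreated cells (45.0%). No domain had more than 12.5% of its bases under H3K27me3 peaks after Adriamycin, or 16.7% in untreated cells.

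The 5 domains with most untreated H3K27me3 held 29.2% of the H3K27me3-covered bases of all long domains after Adriamycin and 30.8% in untreated cells. At chr1:63246972-63325214, 12 H3K27me3 peaks covered 9.77 kb after Adriamycin and 12 covered 13.1 kb in untreated cells, with H3K79me2 filling of 72.8% after Adriamycin and 87.5% in untreated cells. At chr12:100504718-100637214, H3K27me3 covered 12.2 kb after Adriamycin and 13.0 kb in untreated cells. H3K27me3 and H3K79me2 peaks thus lay within the same joined domain at these places. At chr8:46023154-46092066, H3K27me3 covered 2.76 kb after Adriamycin and 8.47 kb in untreated cells, and this was also 1 of the 5 domains with the highest Pol II ratio. At chr2:156439713-156491684 it covered 4.36 kb after Adriamycin and 5.31 kb in untreated cells, and at chr3:130835378-130887815 it covered 2.62 kb after Adriamycin and 5.26 kb in untreated cells.

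The surroundings of long domains were rich in H3K79me2. At 10 to 50 kb outside them, H3K79me2 covered 15.5% of bases after Adriamycin and 17.0% in untreated cells, compared with 4.93% of the chromosomes after Adriamycin and 5.26% in untreated cells. Within 10 kb, where the joining rule leaves the first 3.0 kb free of untreated peaks, it was 9.79% after Adriamycin and 8.58% in untreated cells. In those outer 10 kb alone was H3K79me2 coverage higher after Adriamycin, among the 4 zones measured. The Pol II ratio was 0.663 within 10 kb, 0.686 at 10 to 50 kb and 0.703 at 50 to 100 kb, approaching the value over the chromosomes. hnRNP L peaks were rare, with 3 of the 499 domains holding 1 after Adriamycin and 3 in untreated cells.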

How the data were processed

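ChIP-seq peak lists of 5 targets were used, with 1 library per target and condition and 10 in all. The submitters' processing notes name CASAVA 1.8.2, MACS 1.4.1 and build mm9. Each list deposited by the authors gives position and a score for each peak; in this MACS generation the score is 10 times the negative log10 of the p-value, and the lowest listed was 50. For input libraries, read depth and duplicate handling, the sources used here give nothing. Peaks were called per library, so a difference in covered length can follow depth or enrichment of a library.

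Domains, coverage, breaks and ratios were computed with scipy 1.17.1, pandas 2.3.3 and numpy 2.4.6 under Python 3.11.15, figures were drawn with matplotlib 3.10.9, and the code was checked on simulated lists with known domains. Chromosome length was taken as the highest peak end in any list. A peak counted as inside a domain from 1 shared base. Covered lengths had 1 kb added before a ratio, called past 1.5 times. No treatment effect was tested, since each group had 1 library. Named domains are the extremes of each measure: the 5 longest, 3 on each side of the length limit, 5 each by filling, breaks, Pol II and H3K27me3, and 3 each by H3K4me3. The members and measures were chosen with earlier results of these data known. The gene annotation and sequences at hand were of another build, so no gene or sequence is given. Alternatives covered the gap, score limit, list length, smallest length, break size, added length, overlap, chromosome X and the list that defines the domains.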

Additional observations from a re-analysis of the deposited data

How the results depend on the processing

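No paired analysis was possible because each target had 1 library per condition. Of 61 values under alternatives, 37 stayed within their interval or within 1.5 times and 24 moved, and the cause was not tested. Some of the 37 could not move, so the tally is not a measure of robustness. Chromosome X held no long untreated domain, so leaving it out changed nothing in the untreated long domains. Equal list lengths left the untreated H3K79me2 and the Adriamycin H3K27me3 lists as they were, since these were already the shorter ones. The number of long domains was 234 with gaps of 1000 bp and 158 with a smallest length of 75 kb. Joining over 1000 bp gave lower filling in 94.0% of domains, Adriamycin breaks in 13.7%, untreated breaks in 6.08% of Adriamycin domains and H3K27me3 after Adriamycin in 8.55%; joining over 5000 bp gave Adriamycin breaks in 68.1% and untreated breaks in 52.2%. A smallest length of 75 kb gave Adriamycin breaks in 50.6%, untreated breaks in 33.6%, lower Pol II in 61.4%, lower H3K4me3 in 24.1% and H3K27me3 after Adriamycin in 15.2%. Equal list lengths gave Adriamycin breaks in 50.5%, untreated breaks in 19%, lower Pol II in 36.3% and lower H3K4me3 in 22.0%. A score of at least 100 gave lower H3K4me3 in 22.7% and H3K27me3 in 5.75% after Adriamycin and 7.95% in untreated cells. Breaks over 1000 bp were present in 91.4% of domains and breaks over 10000 bp in 1.8%. Adding 0.1 kb gave lower Pol II in 58.5%, and domains from the Adriamycin list gave lower filling in 68.9%. The break share thus depends on the gap and break size, and unknown depth limits every comparison of covered length.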
